A study of Mus musculus with 18 samples.

Results

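The comparison was between CD3+CD8- and CD3-CD8- leukocytes sorted from the livers of treated mice. Its members were 6 of the 18 libraries of the series, chosen by their labels for treatment and sorted fraction and by no measured value: CD3+CD8- libraries numbered 11, 2 and 19 and CD3-CD8- libraries numbered 11, 2 and 19. All came from CD45+ cells of wild-type C57BL/6J mice, bought at 7 weeks, whose hepatocytes had been given Ras and Myc oncogenes by hydrodynamic injection, so that tumours grew in the liver of a host with its own immune system. Both fractions came from mice given poly(I:C), a double-stranded RNA mimic, at 4 mg/kg and an antibody against PD-L1 at 200 µg, by intraperitoneal injection every other day for 6 doses. The dosing protocol also lists anti-VEGF-A, which the labels of these 6 libraries do not name. Untreated mice with the same tumours gave 3 CD3+CD8- libraries (5, 18 and 6) and 3 CD3-CD8- libraries (1, 5 and 18), against which the fraction difference was set. The labels do not say whether a library came from 1 mouse or from a pool, so p-values measure only the spread between these libraries, which may be technical.

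CD3 is the signalling complex of the T cell receptor. It comprises the gamma, delta and epsilon chains and the zeta chain encoded by Cd247, whose cytoplasmic ITAM motifs are phosphorylated when the receptor binds its antigen. T cells that carry CD3 but not CD8 are mostly helper and regulatory T cells with the coreceptor CD4, joined in the liver by gamma-delta T cells and natural killer T cells. Leukocytes without CD3 include B cells, NK cells, dendritic cells, monocytes, neutrophils and the liver's resident macrophages, the Kupffer cells. B cells signal through Cd79a and Cd79b, the ITAM chains of their own antigen receptor, and present antigen on MHC class II.

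Total counts ran from 2990098 to 14250972 in CD3+CD8- libraries and from 4158555 to 28233682 in CD3-CD8- libraries. CD3+CD8- library 2 stood apart, with 70.7% of its counts on 8 ribosomal RNA loci and 84.0% when the mitochondrial ribosomal RNAs were added, which left 1652042 counts. The other 5 libraries had 0.121% to 0.38% on the 8 loci. Library 2 therefore carried the least information per gene, and 3 counts, the most that a count of 0 allows, stood for 1.15 CPM in it, against 0.0905 CPM in CD3-CD8- library 19, the lowest of the 6. Levels below are CPM, library-size-normalised counts scaled by TMM, and such limits cover counting error only. Pearson correlations of log2 CPM over all genes tested were 0.886 to 0.933 among CD3+CD8- libraries, 0.939 to 0.968 among CD3-CD8- libraries and 0.848 to 0.935 between the fractions.

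The fraction labelled CD3-CD8- went against its label for CD3 and CD8 transcripts. Cd3e had 252.8, 272.2 and 226.5 CPM in CD3+CD8- libraries 11, 2 and 19, against 171.3, 307.9 and 225.9 CPM in CD3-CD8- libraries 11, 2 and 19. Cd3g had 1265, 444.9 and 733.1 CPM in CD3+CD8- and 1285, 1740 and 1408 CPM in CD3-CD8- libraries. For Cd3e the groups overlapped, and for Cd3g every CD3-CD8- library was above every CD3+CD8- library. Of the 8 tested genes of the CD3 and T cell receptor complex 0 passed the test used throughout, edgeR's quasi-likelihood test with Benjamini-Hochberg adjustment over all genes tested, at an adjusted p below 0.05. With the library number as a block 1 was called higher and 1 lower, Trat1, a transmembrane adaptor of the receptor, at an edgeR adjusted p of 0.0221 and Trbc1, a constant region of the receptor's beta chain, at 0.03. The median log2 fold change of the 8 was -0.13 and their summed level 2050 to 3337 CPM in CD3+CD8- and 3230 to 4658 CPM in CD3-CD8- libraries. Cd247 leaned the other way, with 161.9 to 335.8 CPM in CD3+CD8- and 79.35 to 128.3 CPM in CD3-CD8- libraries, a log2 fold change of 1.20 (SE 0.33, edgeR adjusted p 0.113).

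Cd8a, the CD8 alpha chain (chr6:71373426-71379173), had 12.57, 23.46 and 7.66 CPM in CD3+CD8- libraries 11, 2 and 19, against 542.5, 973.9 and 804.3 CPM in CD3-CD8- libraries 11, 2 and 19. No CD3+CD8- library came near the lowest CD3-CD8- library. In a scaling of all 18 libraries, Cd8a was 549 to 985 CPM in treated CD3-CD8- and 1090 to 1380 CPM in treated CD3+CD8+ libraries. CD3-CD8- is therefore used below as the name of a label, for cells whose RNA held both Cd3 and Cd8 transcripts; where these transcripts came from was not tested. In CD3+CD8- libraries the CD8- side of the label was met, with low Cd8a and Cd8b1, and Cd4 and Foxp3 were above the other fraction, as described next. Set against the other fraction, the CD3+ side was not shown: Cd3g and Cd3d were below that fraction in every library. In the scaling of all 18 libraries, treated CD3+CD8- libraries had 228 to 273 CPM of Cd3e, against 246 to 387 CPM in treated CD3+CD8+ libraries. Cd247 had 163 to 340 against 139 to 245 CPM, Cd3g 447 to 1280 against 915 to 1570 CPM and Cd3d 264 to 456 against 476 to 672 CPM. Neutrophil genes, which a sort on CD3 is meant to leave out, summed to 13390 to 34570 CPM in CD3+CD8- libraries. Positions are those of the authors' FPKM table, whose genome build is not given in the sources used here.

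**Figure D1:**
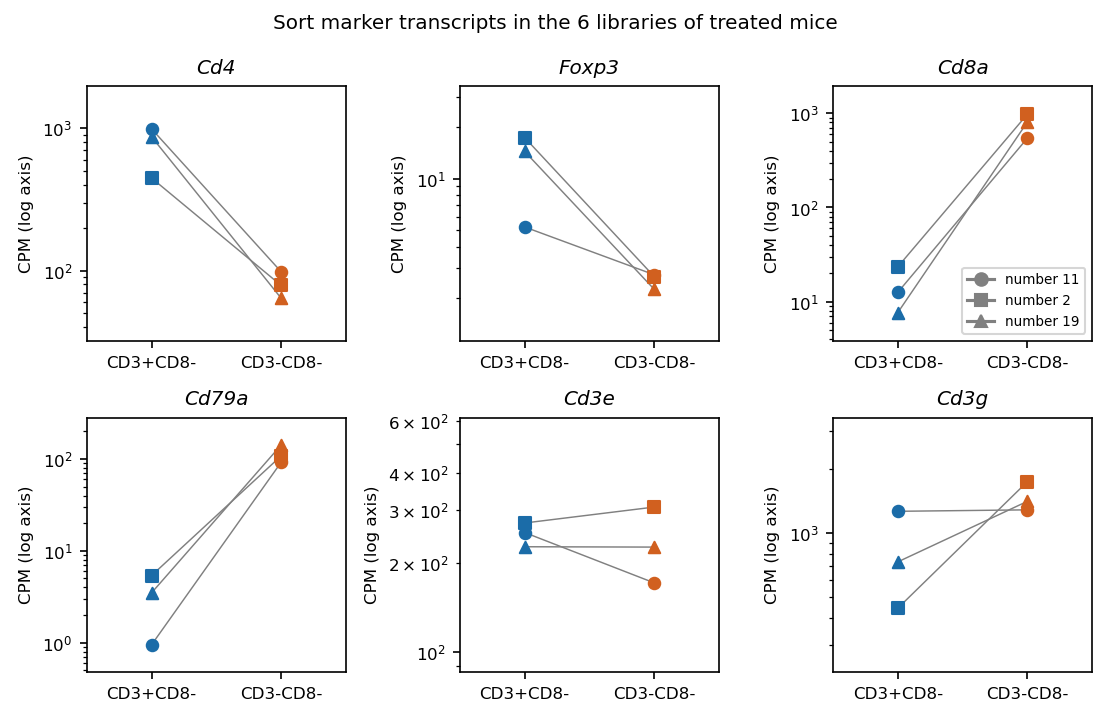
CPM on a log axis for 6 sort and lineage marker genes in the 3 CD3+CD8- libraries (left, blue) and the 3 CD3-CD8- libraries (right, orange) of treated mice; symbols mark the library number and lines join the same number. Cd4 and Foxp3 were higher in CD3+CD8-, Cd8a and Cd79a were lower, and Cd3e overlapped between the fractions.

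Genes called higher in CD3+CD8- cells included Cd4, Foxp3, Tcf7 and Il7r of helper, regulatory and naive T cells, and genes called lower included 18 of 23 B cell genes, 6 of 13 genes of MHC class II presentation, both CD8 chains, Gzma and Gzmb. Of 13158 genes tested by edgeR, 75 (0.57%) were called higher and 149 (1.13%) lower in CD3+CD8- cells, and 2024 had an unadjusted p under 0.05. With the library number as a block, which the numbers support as a pairing, 433 (3.29%) were called higher and 344 (2.61%) lower, and these held all 224 calls made without it. The groups did not overlap for any of the 224, which fixes the sign of each in every same-numbered pair and within each sequencing lane. Over all genes tested the groups did not overlap for 20.1%. Lanes were read from the library names: CD3+CD8- 11 and CD3-CD8- 11 and 2 were in lane 2. CD3+CD8- 2 and 19 and CD3-CD8- 19 were in lane 3. Leaving out 1 CD3+CD8- library gave 37 higher and 87 lower without 11, 20 and 91 without 2, and 30 and 76 without 19. Leaving out 1 CD3-CD8- library gave 299 higher and 146 lower without 11, 24 and 130 without 2, and 10 and 75 without 19. Limma on the authors' FPKM values as deposited, with no further scaling, called 119 higher and 82 lower but kept 0 of the 75 genes called higher and 47 of the 149 called lower. There Cd4 and Tcf7 stood at log2 fold changes of 2.33 and 1.93, each with an adjusted p of 0.811, so the calls of higher genes below rest on the TMM-scaled counts. Over all genes the median log2 fold change was 0.01. Of the 67 called genes examined singly, 28 kept their call whichever of the 6 libraries was left out. These 67 belong to a selected set of 128 genes and were not drawn at random from the 224. Over all calls, leaving out 1 library kept 10 to 52 of the 75 higher and 67 to 127 of the 149 lower.

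**Figure D2:**
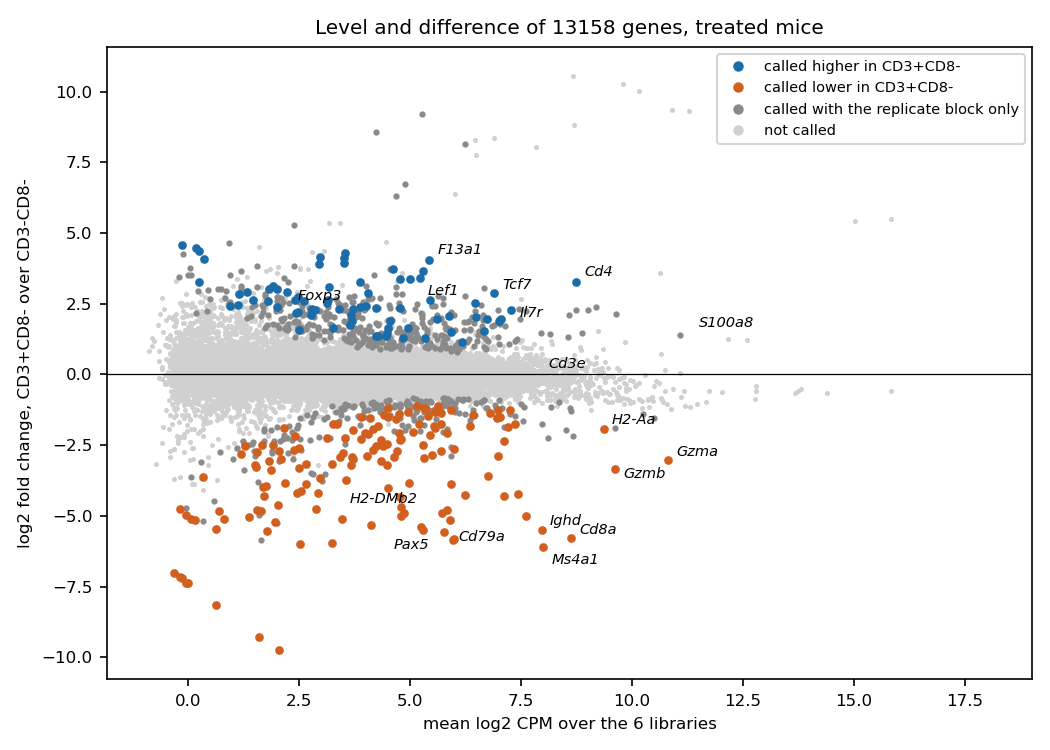
Log2 fold change of CD3+CD8- over CD3-CD8- cells (vertical axis) against mean log2 CPM over the 6 libraries (horizontal axis) for 13158 genes; coloured points are the 75 genes called higher and the 149 called lower, dark grey points were called with the replicate block only. B cell genes and Cd8a form the lowest called points at high level, and Cd4 is the highest-expressed gene called higher.

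Of 7 tested genes of the helper T cell lineage 3 were called higher in CD3+CD8- cells and 0 lower (5 and 0 with the block), with a median log2 of 1.94. Cd4, the coreceptor that binds MHC class II (chr6:124864691-124888221), had 989.8, 447.2 and 870.9 CPM in CD3+CD8- libraries 11, 2 and 19, against 98.4, 78.84 and 64.19 CPM in CD3-CD8- libraries 11, 2 and 19. The lowest CD3+CD8- library, number 2, was well above the highest CD3-CD8- library. The log2 fold change was 3.26 (SE 0.38, edgeR adjusted p 0.00326), and Cd4 kept its call whichever library was left out. In a bulk fraction such a difference may lie in the number of cells that express the gene or in the RNA of each, which cannot be told apart. Cd40lg, the CD40 ligand by which helper cells activate B cells, had 61.18, 41.14 and 37.56 CPM against 5.893, 11.69 and 9.144 CPM (log2 2.36, SE 0.32, edgeR adjusted p 0.00682). Tnfrsf4, the costimulatory receptor OX40, had 15.32 to 36.99 CPM against 2.897 to 7.464 CPM (log2 2.40, SE 0.44, edgeR adjusted p 0.0316), a call that ended without CD3+CD8- 11 or 2 or CD3-CD8- 2 or 19 (adjusted p 0.0769 to 0.118). Icos, a costimulator of follicular and regulatory T cells, had 309.7, 89.21 and 76.18 CPM against 49.5, 43.51 and 31.42 CPM, with CD3+CD8- library 11 far above the others. It was called with the block only (log2 1.94, edgeR adjusted p 0.104, with the block 0.0105).

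Of 15 tested genes of regulatory T cells 4 were called higher and 0 lower (Foxp3, Il2ra, Tnfrsf4 and Izumo1r), and 6 and 0 with the block, with a median log2 of 1.25. Foxp3, the transcription factor that defines these cells (chrX:7579675-7595243), had 5.217, 17.3 and 14.37 CPM in CD3+CD8- libraries 11, 2 and 19, against 2.75, 2.685 and 2.263 CPM in CD3-CD8- libraries 11, 2 and 19. CD3+CD8- library 11 was closest to the other fraction, and its value rested on 22 reads. Foxp3 passed by a small margin (log2 2.26, SE 0.44, edgeR adjusted p 0.0424, with the block 0.00724), and the call ended without CD3+CD8- 2 or 19 or any 1 of the CD3-CD8- libraries (adjusted p 0.0527 to 0.168). Il2ra, the interleukin-2 receptor alpha chain CD25, had 36.52, 38.84 and 29.11 CPM against 13.75, 8.33 and 11.8 CPM. Its log2 fold change was 1.63 (SE 0.27, edgeR adjusted p 0.0207). Ctla4, an inhibitory receptor of regulatory and activated T cells, had 91.77, 78.44 and 26.57 CPM against 29.27, 57.17 and 20.97 CPM, and the groups overlapped. Without CD3+CD8- library 2 the count of regulatory genes called was 0, as it was without CD3-CD8- 2 and without CD3-CD8- 19, while 1 was called without CD3+CD8- 11 and 2 without CD3+CD8- 19.

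Among 19 tested genes of the naive and memory T cell list, 7 were called higher in CD3+CD8- cells and 0 lower, 8 and 0 with the block, and the median log2 was 0.93. Tcf7, which encodes the transcription factor TCF1 of naive and memory T cells (chr11:52252370-52283014), had 129.9, 244.6 and 255.1 CPM in CD3+CD8- libraries 11, 2 and 19, against 25.34, 29.61 and 30.57 CPM in CD3-CD8- libraries 11, 2 and 19. All 3 CD3+CD8- libraries were far above all 3 CD3-CD8- libraries (log2 2.88, SE 0.30, edgeR adjusted p 0.00167), and the call held whichever library was left out. Il7r, the receptor for the survival cytokine interleukin-7, had 190.9, 311.8 and 263.4 CPM against 57.35, 44.14 and 58.04 CPM (log2 2.26, SE 0.27, edgeR adjusted p 0.00338) and also held throughout. Lef1, a partner of TCF1, had 26.8, 123 and 56.95 CPM against 4.321, 7.343 and 7.243 CPM (log2 3.40, SE 0.52, edgeR adjusted p 0.0141), with library 2 highest, and its call ended only without CD3+CD8- 19 among the libraries left out (adjusted p 0.0562). Nsg2, Igfbp4, Dapl1 and Actn1 were called higher as well. The count of 7 was 3 without CD3+CD8- 19 and 4 without CD3+CD8- 2. Not all members of the list were called. Ccr7, a chemokine receptor for lymph node entry, had 23.71 to 118.8 CPM in CD3+CD8- and 39.28 to 67.47 CPM in CD3-CD8- libraries, and the groups overlapped (log2 0.45, SE 0.48).

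Receptors for cytokines followed. Of 20 tested cytokine receptors of T cells 4 were called higher and 0 lower (8 and 0 with the block), namely Il7r, Il2ra, Il18r1 and Il6ra, with a median log2 of 0.47. Il18r1, a chain of the interleukin-18 receptor, had 229.1, 111.5 and 95.04 CPM in CD3+CD8- libraries 11, 2 and 19, against 53.62, 28.54 and 24.45 CPM in CD3-CD8- libraries 11, 2 and 19 (log2 2.04, SE 0.41, edgeR adjusted p 0.0477). The call held only without CD3-CD8- 11 and ended without each of the other libraries (adjusted p 0.0782 to 0.177). The list had 1 called gene without each of CD3+CD8- 11, CD3+CD8- 2, CD3-CD8- 2 and CD3-CD8- 19, and 6 without CD3-CD8- 11. Il2rb, the beta chain shared by the interleukin-2 and interleukin-15 receptors, had 240.4 to 380.1 CPM against 319.4 to 343 CPM, and Il2rg, the common gamma chain, 120.2 to 134.3 CPM against 111.4 to 158 CPM. Both overlapped between the fractions. Il21, which follicular helper T cells secrete to sustain B cells, had 230.5, 23.46 and 6.815 CPM in CD3+CD8- and 25.14, 11.41 and 3.048 CPM in CD3-CD8- libraries 11, 2 and 19. It was higher in CD3+CD8- within each number, but the 3 numbers differed so much that it was called with the block only (edgeR adjusted p 0.296, with the block 0.0172).

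B cell genes showed the widest gap between the fractions by median log2 fold change among the lists with more than 5 tested members. Cd79a, the ITAM chain of the B cell receptor (chr7:24897380-24902197), had 0.9485, 5.383 and 3.487 CPM in CD3+CD8- libraries 11, 2 and 19, against 91.73, 107.9 and 141.6 CPM in CD3-CD8- libraries 11, 2 and 19. The CD3+CD8- values rested on 4, 14 and 66 reads. Its log2 fold change was -5.16 (SE 0.47, edgeR adjusted p 0.000814), 35.9-fold lower in CD3+CD8-. Ms4a1, which encodes CD20, had 4.98, 10.38 and 6.868 CPM against 448.6, 466 and 588 CPM, the most negative log2 fold change among the named genes at -6.11 (SE 0.37, edgeR adjusted p 0.000122). Pax5, the transcription factor that commits cells to the B lineage, had 1.69 to 3.076 CPM against 96.6 to 112 CPM (log2 -5.58, SE 0.30). Cr2, which encodes the complement receptor CD21, and Fcer2a, which encodes CD23, both mark mature follicular B cells and stood at -5.49 (SE 0.56) and -5.40 (SE 0.39). Fcmr, the receptor for IgM, stood at -5.82 (SE 0.40).

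Of 23 tested B cell genes 18 were called lower and 0 higher (20 and 0 with the block), with a median log2 of -4.30, and 16 to 19 were called lower when 1 library was left out. Ms4a1, Pax5, Cd79a, Cd79b, Cr2, Fcer2a and Blk kept their calls whichever library was left out. Genes that plasma cells also transcribe behaved differently. Igkc, the kappa light chain constant region, had 479.7, 579.8 and 942.3 CPM in CD3+CD8- and 1672, 622.5 and 1361 CPM in CD3-CD8- libraries 11, 2 and 19, and Ighm, the IgM heavy chain, 290.2, 551 and 852.8 CPM against 909, 928.4 and 1368 CPM. Neither passed (log2 -0.87, SE 0.44 and -0.92, SE 0.42), and CD3+CD8- library 19 had the most of both in its fraction. Ighd, the IgD heavy chain of naive B cells, had 7.351, 16.92 and 9.192 CPM against 449.4, 421.5 and 589.4 CPM (log2 -5.48, SE 0.40, edgeR adjusted p 0.000176). Of 16 tested plasma cell genes 3 were called lower and 0 higher (3 lower and 1 higher with the block), with a median log2 of -0.21: the lambda constant regions Iglc1 and Iglc2, and Mzb1, a chaperone of antibody assembly. The count of 3 was 1 without CD3+CD8- 11 and 1 without CD3+CD8- 2. Ighg2c, the heavy chain of an IgG subclass, had 85.84, 252.6 and 280.9 CPM in CD3+CD8- and 86.82, 29.61 and 51.09 CPM in CD3-CD8- libraries 11, 2 and 19, and was called higher with the block only (log2 1.90, SE 0.50, edgeR adjusted p 0.104, with the block 0.0444).

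Antigen receptor segments were tested as gene segments, whose reads can be shared among near-identical copies. Of 154 immunoglobulin variable segments 7 were called lower and 0 higher (21 and 0 with the block), with a median log2 of -0.70. All 3 tested lambda variable segments and 4 of 82 kappa segments were called lower, and 0 of 69 heavy chain segments. Of 56 T cell receptor variable segments 4 were called lower and 1 higher (13 and 4 with the block), with a median log2 of -0.09. Tcrg-C2, a constant region of the gamma chain, had 46.95, 50.37 and 37.98 CPM in CD3+CD8- libraries 11, 2 and 19, against 179.9, 317.8 and 197 CPM in CD3-CD8- libraries 11, 2 and 19 (log2 -2.37, SE 0.29, edgeR adjusted p 0.0041), and held whichever library was left out. Trdc, the delta chain constant region, leaned the other way with 13.52, 26.15 and 16.22 CPM against 8.446, 8.014 and 4.98 CPM, and was called with the block only (log2 1.38, SE 0.34, edgeR adjusted p 0.0882, with the block 0.0181). CD8 alpha-beta T cells can also transcribe gamma chain constant regions, and Cd8a was 542.5 to 973.9 CPM in the same CD3-CD8- libraries. Its part in the Tcrg-C2 difference was not tested.

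Of 13 tested genes of MHC class II presentation 6 were called lower in CD3+CD8- cells and 0 higher, 10 and 0 with the block, and the difference was graded within the pathway. H2-Eb2, H2-DMb2, H2-Ob and H2-Oa differed most, the conventional class II chains less. H2-Aa, the alpha chain of I-A, had 231.2, 193.8 and 399.4 CPM in CD3+CD8- libraries 11, 2 and 19, against 1198, 793.8 and 1118 CPM in CD3-CD8- libraries 11, 2 and 19 (log2 -1.91, SE 0.37, edgeR adjusted p 0.0399). H2-Ob, the beta chain of H2-O, which restrains peptide loading in B cells, had 7.114, 19.99 and 13.68 CPM against 259.1, 245.6 and 280.4 CPM (log2 -4.29, SE 0.37, edgeR adjusted p 0.000643). H2-DMb2, a beta chain of the peptide exchange factor H2-DM, had 2.371, 1.923 and 4.702 CPM against 94.67, 93.96 and 112.1 CPM (log2 -4.90, SE 0.35), while its neighbour H2-DMb1 had 15.89, 15.38 and 24.78 CPM against 36.53, 15.36 and 22.6 CPM (log2 -0.37, SE 0.35) and overlapped between the fractions. The DM beta genes are close copies, so the split of reads between them is uncertain. Ciita, the coactivator that switches class II genes on, had 4.98, 11.54 and 13.68 CPM against 43.41, 37.9 and 46.33 CPM (log2 -2.05, SE 0.35, edgeR adjusted p 0.0243). The median log2 of the 13 was -1.91, and H2-Eb2, H2-DMb2, H2-Ob and H2-Oa kept their calls whichever library was left out. Cd74, the invariant chain that guards the peptide groove, had 201.3, 268.4 and 529.6 CPM against 1301, 1010 and 1408 CPM and was called with the block only (log2 -1.89, SE 0.41, edgeR adjusted p 0.0576, with the block 0.00755). H2-Aa lost its call without CD3+CD8- 11 or 2 or CD3-CD8- 11 or 19 (adjusted p 0.0526 to 0.141), and 4 genes were called without CD3+CD8- 2, 4 without CD3-CD8- 19 and 9 without CD3+CD8- 19.

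Class II genes are switched on through a shared promoter module, in which an X box bound by the RFX complex lies upstream of a Y box bound by NF-Y, and CIITA docks on both. The promoters of the 7 class II chains with TGATTGG, the core of the Y box, upstream of the start site are shown because their genes were all lower in mean level in CD3+CD8- cells while their differences ran from -0.37 to -4.90. Sequences are from RefSeq on GRCm38.p6, 65 bases each on chromosome 17, 5′ to 3′ on the gene's strand, with capitals marking TGATTGG and AGCAAC, a core of the X box.
H2-Aa (chr17:34287857-34287921, minus strand): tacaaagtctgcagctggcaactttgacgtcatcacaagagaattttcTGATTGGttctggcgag
H2-Eb1 (chr17:34305758-34305822, plus strand): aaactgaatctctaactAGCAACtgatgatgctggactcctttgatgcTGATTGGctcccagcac
H2-Eb2 (chr17:34325525-34325589, plus strand): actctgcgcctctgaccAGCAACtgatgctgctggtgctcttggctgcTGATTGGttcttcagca
H2-Ob (chr17:34238798-34238862, plus strand): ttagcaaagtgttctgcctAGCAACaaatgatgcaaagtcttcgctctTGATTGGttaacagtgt
H2-Oa (chr17:34092286-34092350, plus strand): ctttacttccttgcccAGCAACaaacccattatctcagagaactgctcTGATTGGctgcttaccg
H2-DMb2 (chr17:34145109-34145173, plus strand): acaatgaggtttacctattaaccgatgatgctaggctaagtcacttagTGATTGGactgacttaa
H2-DMb1 (chr17:34153080-34153144, plus strand): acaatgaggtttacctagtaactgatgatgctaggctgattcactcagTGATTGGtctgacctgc

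The 250 bases before each start site were searched on both strands for TGATTGG and for AGCAAC, and the pair was counted where AGCAAC lay 20 to 50 bases before TGATTGG on the same strand. Of the 13 genes of the list 10 were in the promoter table; 8 of them held TGATTGG and 4 held the pair. Over 32851 promoters the shares were 7.23% for TGATTGG, 12.2% for AGCAAC and 0.0791%, or 26 promoters, for the pair. The 4 with the pair were H2-Eb1, H2-Eb2, H2-Ob and H2-Oa, whose log2 fold changes were -2.17, -4.90, -4.29 and -2.90. The windows of H2-DMb2 and H2-DMb1 were identical at 56 of 65 positions, although their log2 fold changes were -4.90 and -0.37. Such matches are a description of letters and not of bound sites.

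**Figure D3:**
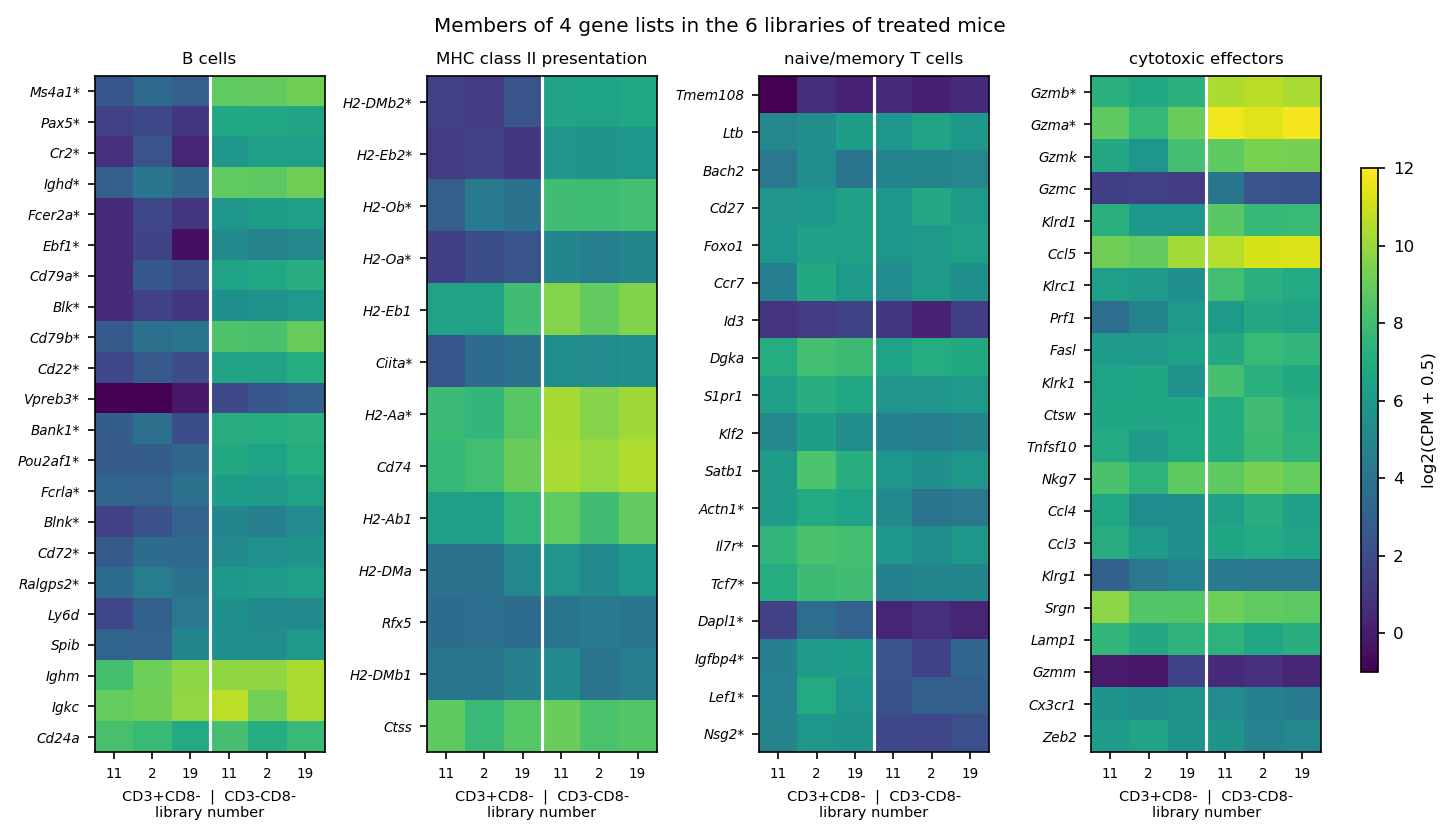
Log2(CPM + 0.5) of tested members of 4 gene lists in CD3+CD8- libraries 11, 2 and 19 (left of the white line) and CD3-CD8- libraries 11, 2 and 19 (right of it); asterisks mark genes called by edgeR without the block. The called B cell genes shown are dark on the left and light on the right in every library, and the 7 called naive and memory T cell genes show the reverse.

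Both CD8 chains and the granzyme genes Gzma and Gzmb were lower in CD3+CD8- cells, while 19 of 21 cytotoxic effector genes did not pass without the block. Cd8a was lower at a log2 fold change of -5.78 (SE 0.51, edgeR adjusted p 0.000663) and Cd8b1 at -4.22 (SE 0.40), although both fractions carry the label CD8-. Gzmb, which encodes the killer protease granzyme B, had 149.4, 110 and 159.4 CPM in CD3+CD8- libraries 11, 2 and 19, against 1347, 1636 and 1308 CPM in CD3-CD8- libraries 11, 2 and 19 (log2 -3.36, SE 0.33, edgeR adjusted p 0.00113), and held whichever library was left out. Gzma, which encodes granzyme A, had 439.9, 199.2 and 528.1 CPM against 3329, 2602 and 3634 CPM (log2 -3.03, SE 0.46, edgeR adjusted p 0.014) and lost its call without CD3+CD8- 11 (adjusted p 0.0601). For both granzymes the fractions were far apart in every library. Prf1, the pore-forming protein perforin, had 12.33, 28.45 and 65.14 CPM against 68.35, 115.6 and 89.42 CPM and was called with the block only (edgeR adjusted p 0.233, with the block 0.0197). Of 21 tested cytotoxic effector genes 2 were called lower and 0 higher (9 and 0 with the block), with a median log2 of -0.85, and 1 to 3 were called when 1 library was left out.

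Of 18 tested NK cell genes 4 were called lower and 0 higher (10 lower and 1 higher with the block), with a median log2 of -1.39. They were Gzma and the receptor genes Klra4, Klra8 and Klre1. The 1 called higher with the block was Fcgr3 (log2 1.19, SE 0.45, edgeR adjusted p 0.245, with the block 0.0485). Among other members of high level, Tyrobp, Il2rb and Klrb1c overlapped between the fractions, at 0.53, -0.17 and -0.61. Klrk1 was called lower with the block only (log2 -1.20, edgeR adjusted p 0.161, with the block 0.0245). Of the 18, 2 had a positive log2 fold change. Klra8, which encodes the activating receptor Ly49H, had 6.402, 6.537 and 4.807 CPM in CD3+CD8- libraries 11, 2 and 19, against 74.83, 24.67 and 31.27 CPM in CD3-CD8- libraries 11, 2 and 19 (log2 -2.90, SE 0.45, edgeR adjusted p 0.0145). Ncr1, the NK receptor NKp46, had 18.5, 28.45 and 16.64 CPM against 147.1, 48.05 and 63.92 CPM (log2 -2.04, SE 0.43, edgeR adjusted p 0.0516, with the block 0.00946). CD3-CD8- library 11 had the most of both. The 4 calls fell to 0 without CD3+CD8- 11, 2 without CD3+CD8- 2 and 1 without CD3+CD8- 19, and were 7 without CD3-CD8- 2. Klr genes lie in clusters of close copies, so reads may be split among them.

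Inhibitory receptors did not separate the fractions as a group. Pdcd1, which encodes PD-1, the receptor of the ligand that the antibody blocks, had 234, 98.05 and 122.7 CPM in CD3+CD8- libraries 11, 2 and 19, against 174.8, 247.8 and 196.5 CPM in CD3-CD8- libraries 11, 2 and 19 (log2 -0.45, SE 0.34, edgeR adjusted p 0.612). Tigit and Lag3, further inhibitory receptors, and Tox, which drives the exhausted state of T cells, stood at -0.37 (SE 0.39), -0.42 (SE 0.33) and -0.07 (SE 0.44). All 4 overlapped between the fractions. Of 22 tested genes of inhibitory receptors and exhaustion 3 were called lower and 0 higher (4 and 0 with the block), with a median log2 of -0.10. They were Btla, an inhibitory receptor that B cells also express, Cd160 and Cd244, receptors of killer and NK cells. Cd160 had 86.55, 47.3 and 56.53 CPM against 192.7, 286.5 and 208.8 CPM (log2 -1.85, SE 0.30, edgeR adjusted p 0.018). The list had 0 calls without CD3+CD8- 2 and 0 without CD3-CD8- 19, 1 without CD3+CD8- 19, and 2 without each of the other 3 libraries. B cell genes, CD8 chains and granzymes moved with these calls, and their part in them was not tested. Among 11 tested costimulatory receptors 3 were called higher and 0 lower (5 higher and 1 lower with the block), with a median log2 of 0.55: Cd40lg and Tnfrsf4 as above, and Tnfrsf25, a death domain receptor that costimulates T cells, at 2.62 (SE 0.52). The Tnfrsf25 call ended whichever of the 6 libraries was left out (edgeR adjusted p 0.0536 to 0.147). Cd28, the receptor for B7 ligands, had 288.6, 232.6 and 165.3 CPM against 83.28, 131.7 and 90.42 CPM and was called with the block only (log2 1.17, SE 0.29, edgeR adjusted p 0.0916, with the block 0.0287). The count of 3 was 1 without CD3+CD8- 11, CD3+CD8- 2, CD3-CD8- 2 or CD3-CD8- 19, and 2 without either of the others.

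**Figure D4:**
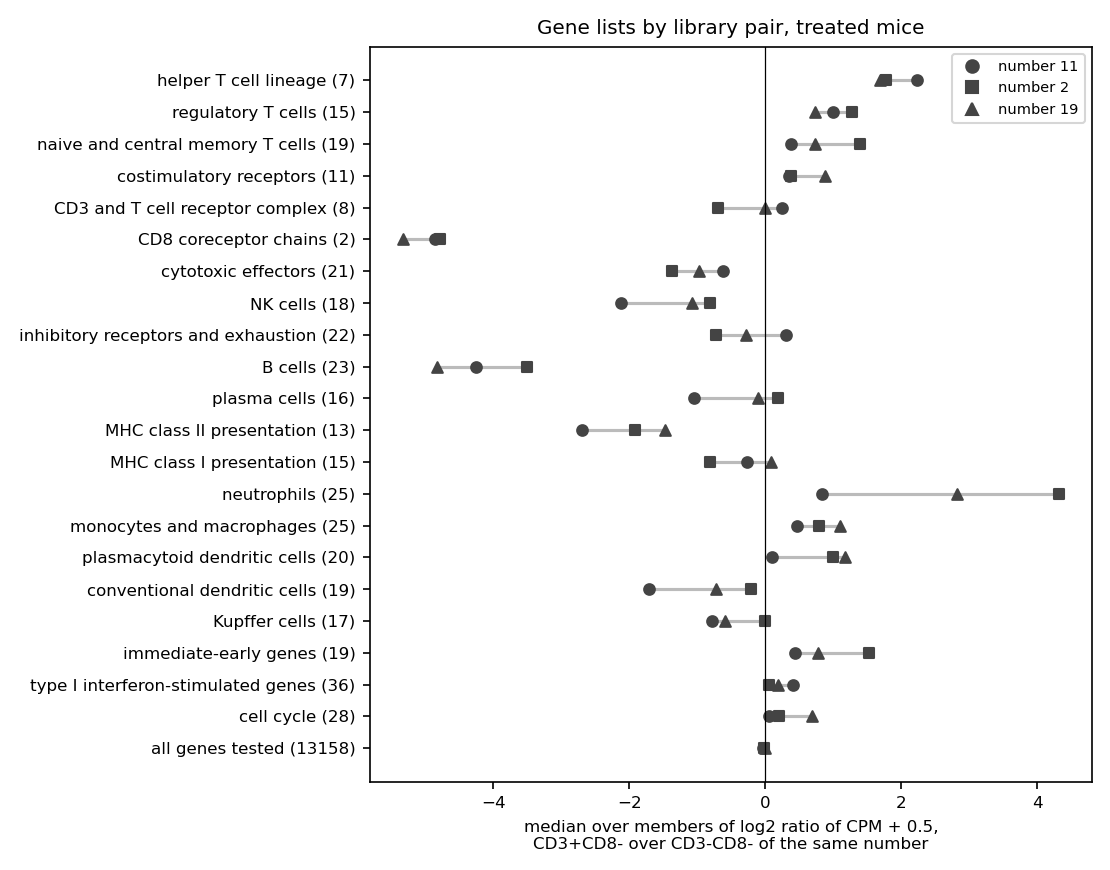
Median over the tested members of each gene list (number of members in brackets) of the log2 ratio of CPM + 0.5, CD3+CD8- over CD3-CD8-, for library numbers 11 (circle), 2 (square) and 19 (triangle). The B cell, CD8 and MHC class II medians are below 0 and the helper, regulatory and naive T cell medians above 0 in all 3 pairs, while the neutrophil median runs from 0.83 in pair 11 to 4.32 in pair 2.

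Neutrophil and monocyte transcripts were abundant in CD3+CD8- cells. The 25 tested neutrophil genes summed to 34570, 16380 and 13390 CPM in CD3+CD8- libraries 11, 2 and 19, against 21420, 741.2 and 1781 CPM in CD3-CD8- libraries 11, 2 and 19. Number 11 was the richest in both fractions, so that the groups overlapped while each number had more in CD3+CD8-. S100a8, a calcium-binding protein of neutrophil cytosol, had 11620, 3850 and 3809 CPM against 7416, 181.5 and 556.2 CPM (log2 1.24, SE 1.14, edgeR adjusted p 0.691, with the block 0.0503). Ltf, the granule protein lactoferrin, had 1404, 814 and 736.9 CPM against 500.9, 14.41 and 46.84 CPM (log2 2.40, SE 1.04, edgeR adjusted p 0.315, with the block 0.00908). Csf3r, the receptor for the neutrophil growth factor G-CSF, had 176.2, 328 and 367 CPM against 116.1, 15.91 and 44.58 CPM (edgeR adjusted p 0.11, with the block 0.0174). Without the block 0 of 25 were called, with it 21 were called higher and 0 lower, and all 25 had a positive log2 fold change, with a median of 2.11. Without CD3-CD8- library 11 the fit without a block called 22 higher and 0 lower.

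The 25 tested monocyte and macrophage genes summed to 7604, 4675 and 4695 CPM in CD3+CD8- and 4344, 1494 and 1570 CPM in CD3-CD8- libraries 11, 2 and 19. Every CD3+CD8- library was above every CD3-CD8- library. Among them 3 were called higher and 0 lower (9 and 0 with the block), with a median log2 of 0.81. F13a1, the coagulation factor XIII subunit of monocytes (chr13:36867177-37050244), had 98.17, 77.29 and 69.05 CPM against 6.482, 1.777 and 6.971 CPM (log2 4.03, SE 0.48, edgeR adjusted p 0.00362) and held whichever library was left out. Vcan, a matrix proteoglycan, and Ly6c2, a surface marker of inflammatory monocytes that some T cells also carry, stood at 4.16 (SE 0.63) and 1.96 (SE 0.35). The count of 3 was 1 without CD3+CD8- 11, 1 without CD3-CD8- 19 and 8 without CD3-CD8- 11. Of 17 tested Kupffer cell genes 0 were called (1 lower with the block), with a median log2 of -0.70, and of 20 tested plasmacytoid dendritic cell genes 1 was called higher and 0 lower (3 and 0 with the block), Ly6c2, which also stands in the monocyte list, with a median of 0.88. Of 19 tested conventional dendritic cell genes 2 were called lower and 0 higher (5 lower and 1 higher with the block): Xcr1, the chemokine receptor of cross-presenting dendritic cells, at -2.77 (SE 0.42), and Tlr3, a sensor of double-stranded RNA, at -3.18 (SE 0.63). Both calls ended without each of the 3 CD3+CD8- libraries in turn (adjusted p 0.0575 to 0.154), and 1 was left without CD3-CD8- 19. The part that myeloid transcripts took in the levels of the other genes of CD3+CD8- libraries was not tested.

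**Figure D5:**
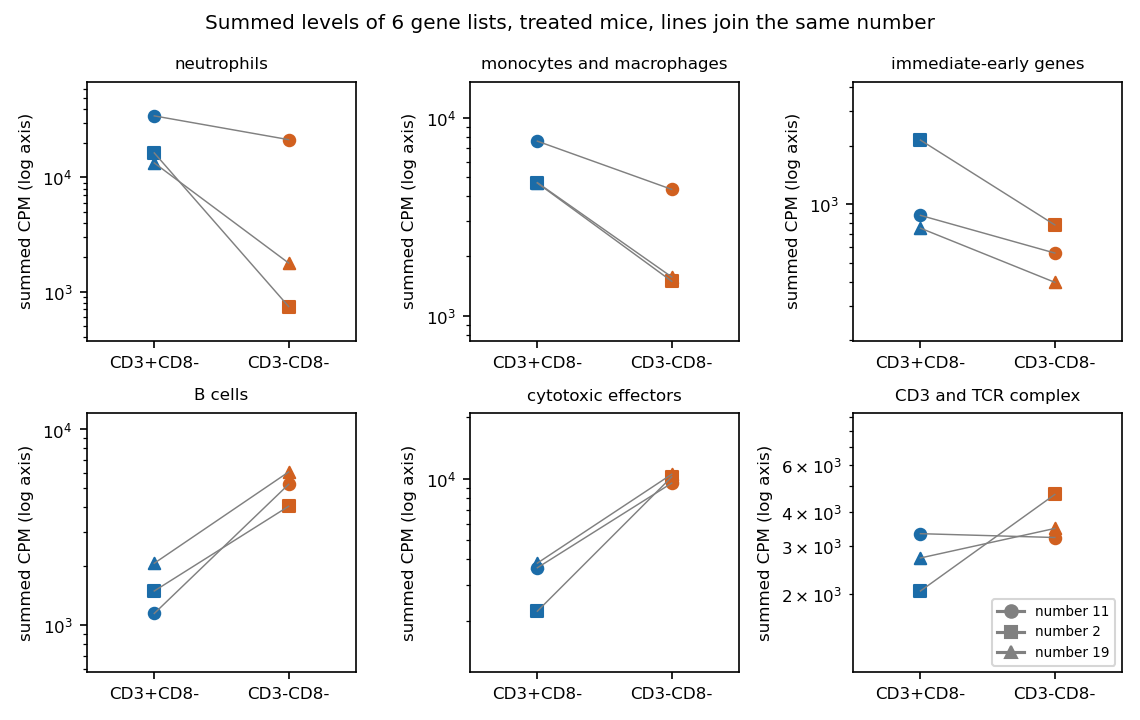
Summed CPM (log axis) of 6 gene lists in CD3+CD8- (left, blue) and CD3-CD8- libraries (right, orange) of treated mice; lines join libraries of the same number. Neutrophil sums run from 13390 to 34570 CPM in CD3+CD8- and from 741.2 to 21420 CPM in CD3-CD8- libraries, and sums of the CD3 and T cell receptor complex from 2050 to 3337 CPM and from 3230 to 4658 CPM.

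Immediate-early genes, which cells switch on within minutes of a stimulus or of handling, summed to 875.2, 2133 and 752.1 CPM in CD3+CD8- libraries 11, 2 and 19, against 560.4, 781.8 and 396.3 CPM in CD3-CD8- libraries 11, 2 and 19. Fos, a component of the AP-1 factor, had 94.38, 251.5 and 106.5 CPM in CD3+CD8- libraries 11, 2 and 19, against 34.18, 28.42 and 16.36 CPM in CD3-CD8- libraries 11, 2 and 19 (log2 2.52, SE 0.43, edgeR adjusted p 0.026). It was the 1 called gene of 19 tested (7 with the block, all higher), and the median log2 was 1.32, or 0.46 without CD3+CD8- library 2. Its call ended without CD3+CD8- 19, CD3-CD8- 2 or CD3-CD8- 19 (adjusted p 0.0503 to 0.084). Outside the immediate-early list, 2 further genes were called higher. Ptgs2, which encodes the prostaglandin enzyme COX-2, had 21.82, 171.9 and 29.79 CPM against 7.66, 5.567 and 4.497 CPM (log2 3.67, SE 0.75, edgeR adjusted p 0.048). Nt5e, the ectoenzyme CD73, had 114.1, 87.67 and 24.46 CPM against 17.68, 11.92 and 7.635 CPM (log2 2.62, SE 0.54, edgeR adjusted p 0.0485). Ptgs2 kept its call only without CD3+CD8- 2, and Nt5e only without CD3+CD8- 19 or CD3-CD8- 11 (adjusted p 0.0545 to 0.159 elsewhere). Of the CD3+CD8- libraries, 2 had the most Fos and Ptgs2, and 11 the most Nt5e. CD3+CD8- library 2 was also the one with 70.7% of counts on ribosomal RNA loci, and the part of that in these levels was not tested.

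Among lists of general cell state, called genes were few and ribosomal protein genes lay apart in level. Of 36 tested type I interferon-stimulated genes 0 were called (6 higher and 0 lower with the block), with a median log2 of 0.22, and of 28 tested cell cycle genes 0 were called with or without the block, with a median of 0.42. Oasl2, an interferon-induced gene of the oligoadenylate synthetase family, had 72.8, 107.3 and 68.52 CPM in CD3+CD8- libraries 11, 2 and 19, against 38.89, 10.38 and 14.64 CPM in CD3-CD8- libraries 11, 2 and 19 (log2 1.99, SE 0.46, edgeR adjusted p 0.0718, with the block 0.00717), and was named after its values were seen. Of 15 tested genes of MHC class I presentation 0 were called with or without the block, with a median of -0.24. Of 71 cytosolic ribosomal protein genes 0 were called with or without the block, and the median was -0.73. For 46 of them every CD3+CD8- library was below every CD3-CD8- library, which held for 10.3% of all genes tested. Their summed level was 30970 to 42840 CPM in CD3+CD8- and 58730 to 82870 CPM in CD3-CD8- libraries.

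The fraction contrast was then set against the same contrast in untreated mice, to ask whether it differed with treatment. The interaction term in edgeR called 0 of 14159 genes (0%), the smallest adjusted p being 0.767, and 740 had an unadjusted p under 0.05. With the block 8 genes were called (0.0565%), but in untreated mice only libraries whose number was in both fractions carried weight there. The gene of smallest p without the block was Fcmr, whose log2 fold change between the fractions was -5.83 in treated and -8.74 in untreated mice, a difference of 2.91 (SE 0.60). Mx1, an interferon-induced antiviral gene, stood at -0.56 in treated and 1.02 in untreated mice. Xlr4c stood at -0.741 and 1.565, and Vmp1 at -0.862 and 0.784. Cxcr5, the receptor that brings cells into B cell follicles, stood at -1.75 and -3.60. Each difference had an edgeR adjusted p of 0.767. Median log2 fold changes of the B cell list were -4.30 in treated and -5.73 in untreated mice, of the MHC class II list -1.91 and -3.33, of the regulatory T cell list 1.25 and 1.24, and of the neutrophil list 2.11 and 3.72. For the CD3 and T cell receptor complex they were -0.13 and 0.67, and for immediate-early genes 1.32 and 0.2. For the genes in both fits the medians were 0.01 in treated and -0.03 in untreated mice.

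The CD8 chains gave a median of -5.0 in treated and 0.56 in untreated mice. In the scaling of these 12 libraries Cd8a had 14.78, 26.67 and 9.017 CPM in treated CD3+CD8- libraries 11, 2 and 19 and 635, 1148 and 949.9 CPM in treated CD3-CD8- libraries 11, 2 and 19. In untreated mice it had 5.444, 7.83 and 755.5 CPM in CD3+CD8- libraries 5, 18 and 6 and 217.6, 352.8 and 73.35 CPM in CD3-CD8- libraries 1, 5 and 18. The library labelled untreated CD3+CD8- number 6 went against its label for Cd8a, and the other untreated CD3+CD8- libraries were as low as the treated ones. The letters before number 6 in the library name also differ from those of every other untreated library. Whether that bears on its Cd8a level was not tested. The Cd8a difference between the contrasts was -6.05 and did not pass (edgeR adjusted p 0.844). Without that library 0 genes passed as well. With the block and without its number 9 passed. That fit could not show the library's part, since no CD3-CD8- library shares its number.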

How the data were processed

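The authors deposited whole-number counts per gene for 48440 gene identifiers in 40 library columns, of which 18 belong to this series' samples and 22 were not used. They also deposited FPKM values per gene with symbols and positions, used for those and for 1 alternative. Per the labels' protocols, RNA was isolated with a low-input kit and libraries were made with TruSeq v2, under a single batch label. Tools listed in the submitters' processing notes, with no roles, are Cufflinks 2.2.1, DESeq2 3.20, HTSeq 0.13.5 and Trim Galore 0.6.7. Aligner, genome build and use of strand: not given in the sources used here. For CD3+CD8- number 11 the title has a doubled digit, and the description gives 11. In the library names the letters before number 19 differ from those before 11 and 2. Among untreated libraries, the letters of the CD3+CD8- library that was high in Cd8a differ from those of all others.

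Counts were compared with edgeR 4.0.16 in R 4.3.3: filterByExpr by group, TMM scaling, the quasi-likelihood F-test (two-sided) and Benjamini-Hochberg adjustment over all genes tested. Genes with an adjusted p below 0.05 were called. Fold changes are CD3+CD8- over CD3-CD8-. The shared library number was tried as a block. Same-numbered treated libraries deviated together from their group means (r = 0.18 for 11, 0.20 for 2 and 0.39 for 19, against -0.21 to -0.06 for other pairs, with a threshold of 0.1). The numbers were therefore taken as pairs, from the data and not from a label. Untreated numbers were used as a block without this check. In the scaling of 12 libraries Xist, an X inactivation gene, had 1367 and 667.2 CPM in treated number 2, CD3+CD8- and CD3-CD8-. It had 0.4598 to 2.231 CPM in treated 11 and 19, where the Y-linked Ddx3y had 99.49 to 199.3 CPM. Untreated CD3-CD8- 1 had 379.4 CPM of Xist, and CD3+CD8- 6 had 295.1 CPM with 21.01 CPM of Ddx3y. The part of sex in the contrasts was not tested. The fit without the block was set as the main one, and blocked values stand beside it. The difference between treated and untreated contrasts was the interaction term of a 12-library fit. Lists (54) are described by counts called and median log2, with no set test.

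Genes named by rule were 11 fixed ones, the 10 largest called changes each way at a mean log2 CPM of at least 5 without overlap, and up to 6 members of each list by level; for the difference, 5 genes by p at a mean log2 CPM of at least 3. Others named, among them Ciita, H2-Eb2, H2-Oa, Klra8, Ncr1, Prf1, Csf3r, Vcan, Xcr1, Tlr3 and Lag3, were chosen after their values were seen. The members, lists and tests were chosen with earlier results of these data known. DESeq2 1.42.0 and limma 3.58.1 served for alternatives, and the edgeR fit was tested on simulated data. Alternatives were other scaling, filters, tools and library sets, the lane, a GC offset, removal of ribosomal RNA loci or of 472 genes of other tissues, and limma on log2(FPKM + 1) at a mean FPKM of at least 1. Some members of the lists are counted but not reported here by name.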

Additional observations from a re-analysis of the deposited data

Results flagged for a closer look

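With the replicate block, 8 genes differed in their fraction contrast between treated and untreated mice (interaction term in edgeR, adjusted p 0.00925 to 0.0418). Without the block none of them passed (adjusted p 0.767 to 0.994). In untreated mice only libraries whose number was in both fractions carried weight in the blocked term. Whether untreated libraries of the same number are pairs was not tested. Of these 8 genes, 4 are small structured RNAs or unnamed gene models that were high in 1 library. Rn7s1 differed by 10.88 on the log2 scale, Snord15a by 11.1, Scarna2 by 10.84 and Gm22486 by 9.61. Treated CD3+CD8- library 2 had 273, 166, 47.7 and 195 CPM of Rn7s1, Snord15a, Scarna2 and Gm22486, and no other of the 12 libraries had more than 7.83 CPM of any. The same library had 70.7% of its counts on ribosomal RNA loci, and the part of that in these 4 values was not tested.

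C1qa and C1qb, subunits of the complement component C1q made by macrophages, differed by 3.11 and 2.42. C1qa had 16.5, 5.68 and 15 CPM in treated CD3+CD8- libraries 11, 2 and 19 and 26, 8.75 and 24.6 CPM in treated CD3-CD8- libraries 11, 2 and 19. In untreated mice it had 7.02, 11.7 and 19.6 CPM in CD3+CD8- libraries 5, 18 and 6, against 60.6, 111 and 139 CPM in CD3-CD8- libraries 1, 5 and 18. The fractions were thus further apart in untreated mice, where all CD3-CD8- libraries were above the treated ones. Only numbers 5 and 18 were in both untreated fractions, so the untreated side of the blocked difference rested on them. Rps12-ps3, a ribosomal protein pseudogene whose reads may be shared with other copies, differed by 3.75. In untreated pairs 5 and 18 it had 4.01 and 0.602 CPM in CD3+CD8-, against 56.4 and 15.9 CPM in CD3-CD8- libraries. The library labelled untreated CD3+CD8- number 6 had 112 CPM but no partner, so it carried no weight in that difference. Without the block, where library 6 counted, the difference was 0.159. Gm38244 differed by -2.96.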

How the results depend on the processing

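The shared library number as a replicate block gave 433 genes higher and 344 lower in place of 75 and 149, 328 and 306 with a GC offset, and 8 in place of 0 for the difference between treated and untreated mice. It ended no call made without it. Library totals alone gave 25 and 91 (median of all genes -0.37), no filter 867 and 436, and DESeq2 in full 447 and 342. The stricter filter gave 38 higher, voom 356 higher, the lane as covariate 42 higher and all 18 libraries 86 lower. Limma on FPKM gave 119 and 82 and kept 0 of the 75 and 47 of the 149. Leaving out 1 library gave 10 to 299 higher and 75 to 146 lower, and 0 for the difference. The difference gave 198 genes with no filter and 13 by DESeq2. Chosen after seeing the data were fits without both libraries of number 2 (8 and 86) or 11 (133 and 71), the block without ribosomal RNA loci (459 and 353), the block without number 2 (375 and 419), 11 (770 and 489) or 19 (363 and 234), and the difference with the block without untreated number 6 (9) or treated number 2 (14). The cause of these shifts was not tested. The blocked fit without untreated number 6 could not show that library's part, since no CD3-CD8- library shares its number. Of 1797 alternative values of 67 called genes 1420 stayed called, 377 lost the call and 0 reversed; of 1639 values of 61 other genes 317 became called and 0 reversed. Of 1453 list medians 1311 moved by less than the SD between pairs. Depth limits low genes most in CD3+CD8- library 2, where 3 counts stand for 1.15 CPM, and 3 libraries a group limit every call.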
